A study of Mus musculus with 15 samples.

Results

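The 10 genes described here carry iron into the cell, between its compartments, into storage or out of it, and were followed in the BV2 line. They are Tfrc, Steap3, Slc11a2, Slc11a1, Fth1, Ftl1, Ncoa4, Hmox1, Ireb2 and Slc40a1. They were chosen by name for their known roles, at a time when earlier results of these data were known. They are 10 of the 54390 genes in the count tables. BV2 is an immortalized mouse line used as a stand-in for microglia, the resident macrophages of the brain. Bulk RNA-seq covered 15 libraries: WT cells left non-foamy (n = 4) or made foamy (n = 4), and Trem2-/- cells left non-foamy (n = 3) or made foamy (n = 4). To become foamy, cells had been loaded overnight with soluble cholesterol at 20 μg/ml, and non-foamy cells had been kept in media alone. The cholesterol had been prepared with methyl-beta-cyclodextrin, and the methods name no control with this carrier alone. An effect of cholesterol and one of its carrier therefore cannot be told apart, and responses to cholesterol below include both. Trem2 encodes a lipid-sensing receptor of macrophages. The Trem2-/- cells descended from a Cas9-expressing single clone of BV2, were transfected with a guide against Trem2, selected with puromycin and cloned again by limiting dilution. The methods state neither how many Trem2-/- clones were sequenced nor whether the WT cells carried Cas9, so the effect of the genotype and that of a clone cannot be told apart. Nothing states that replicates came from separate thaws or passages, so the p-values measure the spread between these libraries, which may be technical.

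Macrophages take up iron bound to transferrin through the transferrin receptor, reduce it and pass it from the endosome to the cytosol through divalent metal transporters. They also gain iron by degrading heme. Iron that is not used is stored in ferritin, released again when ferritin is delivered to lysosomes, or exported through ferroportin, the only iron exporter known in mammals. Iron regulatory proteins bind a stem-loop in the mRNAs of several of these genes when iron is scarce: a stem-loop in the 5′ untranslated region (UTR) blocks translation, and stem-loops in the 3′ UTR stabilize the transcript.

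Matches to the stem-loop are shown because iron regulatory proteins bind stem-loops of this kind. In transcripts of the GENCODE M21 annotation of GRCm38, the sense strand was searched for C, any 5 bases, CAGTGN and 5 bases that pair with the first 5, with G-T pairs allowed. The motif was found at 7 sites in 4 of the 10 genes. Capitals mark the bulged C and the CAGTGN loop.
Fth1, 5′ UTR, chr19:9982732-9982761, plus strand: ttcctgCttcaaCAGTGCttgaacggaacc
Ftl1, 5′ UTR, chr7:45459778-45459807, minus strand: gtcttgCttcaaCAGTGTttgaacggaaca
Slc40a1, 5′ UTR, chr1:45925464-45925493, minus strand: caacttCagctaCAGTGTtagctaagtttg
Tfrc, 3′ UTR, chr16:32631219-32631248, plus strand: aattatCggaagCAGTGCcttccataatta
Tfrc, 3′ UTR, chr16:32631598-32631627, plus strand: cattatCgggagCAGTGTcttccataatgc
Tfrc, 3′ UTR, chr16:32631663-32631692, plus strand: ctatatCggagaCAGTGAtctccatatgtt
Tfrc, 3′ UTR, chr16:32631710-32631739, plus strand: aattatCgggaaCAGTGTttcccataattt
The windows of the 2 ferritin genes were identical at 26 of 30 bases, and that of Slc40a1 matched Fth1 at 13. Of 22527 protein-coding genes, 0.138% held the motif in a 5′ UTR and 0.639% in a 3′ UTR. These letters were not found in the annotated transcripts of the other 6 genes. The pattern allows no further bulge in the stem, and the stem-loop known in the 3′ UTR of an isoform of Slc11a2, which has one, falls outside it. Counts of mRNA do not show how much of a stem-loop transcript is translated.

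Every library held 23538963 to 41683825 counted reads, and each of the 10 genes had between 500 and 259658 reads per library. Over all genes, the spread within each group exceeded counting noise. Levels are given as CPM, the reads of a gene as a share of its library on a common scale, after correction of the library sizes by the trimmed mean of M values (TMM). Differences were tested with edgeR's quasi-likelihood test in 1 model of all 15 libraries, and calls were made at a Benjamini-Hochberg adjusted p under 0.05 over 14237 tested genes. Trem2 itself, the targeted gene, averaged 354 ± 41.2 CPM (s.d., n = 4) in WT non-foamy cells. In Trem2-/- non-foamy cells it averaged 222 ± 8.79 CPM (n = 3), so its transcript was reduced and not lost. The study reports loss of the Trem2 protein by flow cytometry, which counts of mRNA do not measure. All 10 markers of macrophages and microglia reached 1 CPM in at least 1 library, although Cx3cr1, a microglial chemokine receptor, stayed between 0.149 and 1.96 CPM. The markers of erythroid cells were at 0 and those of the other cell types examined summed to at most 2.57 CPM. Of the macrophage markers, 7 were called higher and 1 lower in Trem2-/- than in WT cells, both with and without cholesterol. Over all tested genes, 21.0% were called higher and 22.6% lower without cholesterol, and 14.3% and 15.9% with it. Their summed level was 6221 to 7989 CPM over the WT libraries and 10404 to 11441 CPM over the Trem2-/- libraries. Lyz2 was its largest part, at means of 3252 CPM in WT and 6318 CPM in Trem2-/- non-foamy cells. Between the same groups Spi1 (93.4 and 98.3 CPM) and Itgam (26.7 and 29.3 CPM) moved little, and Cx3cr1 was lower (1.54 and 0.300 CPM). The sum therefore moved with genotype alongside the iron genes, and its part in the results below was not tested.

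More of the iron genes differed by genotype than by cholesterol. Without cholesterol, 8 of the 10 were higher in Trem2-/- than in WT cells and none was lower, where 21.0% of all tested genes were called higher and 22.6% lower. With cholesterol, 6 were higher and none was lower, where the shares over all genes were 14.3% and 15.9%. For the same 8 and 6 genes every Trem2-/- library lay above every WT library, against 22.6% and 13.8% of all genes. The median log2 fold change of the 10 genes was 0.41 without and 0.33 with cholesterol, where that of all genes was 0.02 and 0.00. Between foamy and non-foamy cells, 1 of the 10, Slc40a1, was called higher in WT (background 1.66% higher, 1.14% lower). None was called in Trem2-/- cells (background 0.140% in either direction). In edgeR, 1 gene had an unadjusted p under 0.05 in the latter comparison, and DESeq2 also called none. The difference between the responses was called for Slc40a1 alone of the 10 (background 3.64% in either direction, 1.64% lower). The genotype comparisons and the cholesterol responses use the same libraries and are not independent. In bulk RNA, fewer cells that express a gene and less RNA per cell cannot be told apart.

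**Figure D1:**
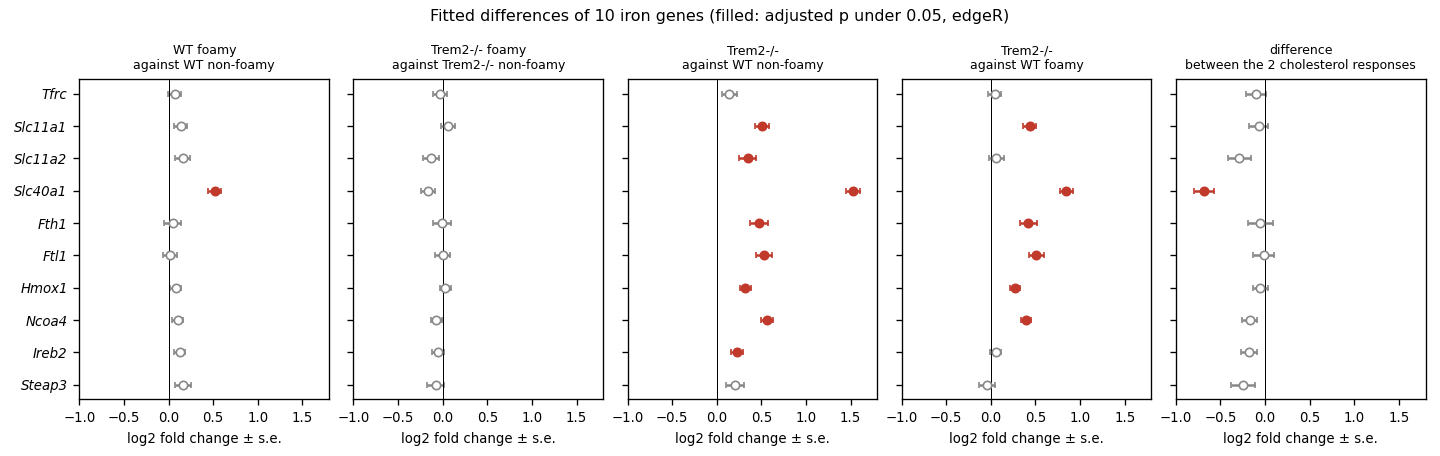
Fitted log2 fold changes of the 10 genes (points) with standard errors (bars) in the 5 comparisons, with positive values meaning higher in the group named first. Filled red points passed an adjusted p of 0.05. Slc40a1 stands farthest to the right in both genotype comparisons, at 1.52 and 0.84, and is the sole filled point for the WT response and for the difference between the responses.

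Slc40a1 (chr1:45908068-45926523, minus strand) encodes ferroportin, the exporter of ferrous iron. It was the lowest of the 10 genes per exonic length in WT non-foamy cells and had the largest differences among them. In WT non-foamy cells its level was 17.9, 21.5, 22.9 and 21.4 CPM. In WT foamy cells it was 28.5, 30.4, 32.1 and 28.5 CPM. Every WT foamy library thus lay above every WT non-foamy library, as for 4.56% of all genes. In Trem2-/- non-foamy cells it was 61.2, 60.9 and 58.2 CPM. In Trem2-/- foamy cells it was 51.9, 51.8, 51.7 and 59.0 CPM. Every Trem2-/- library lay above all WT libraries, whether or not cholesterol had been added. The Trem2-/- foamy libraries lay below the non-foamy ones except for the 59.0 CPM of replicate 4, which overlapped them.

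In WT cells Slc40a1 was 1.43-fold higher with cholesterol, at 29.9 ± 1.73 against 20.9 ± 2.10 CPM (s.d., n = 4 in both groups). The log2 fold change was 0.52 ± 0.08 (s.e., edgeR adjusted p = 0.000332). In Trem2-/- cells the level was 60.1 ± 1.64 CPM without and 53.6 ± 3.59 CPM with cholesterol (n = 3 and 4), a log2 fold change of −0.16 ± 0.08 that did not pass the test (edgeR adjusted p = 0.774). The responses themselves differed by −0.68 ± 0.11 on the log2 scale (edgeR adjusted p = 0.000877). Trem2-/- cells held 2.88-fold more Slc40a1 transcript than WT cells without cholesterol (log2 fold change 1.52 ± 0.08, edgeR adjusted p = 2.09e-12). With cholesterol the gap narrowed to 1.79-fold (0.84 ± 0.07, edgeR adjusted p = 1.51e-08). All 4 calls held in every alternative processing tried, and without any 1 library the WT response stayed between 0.45 and 0.56.

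On the importer side, Tfrc (chr16:32608920-32632794, plus strand), the transferrin receptor, was not called in any of the 5 comparisons nor in any alternative. Its level ran from 311 to 358 CPM in WT non-foamy, 318 to 379 in WT foamy, 349 to 382 in Trem2-/- non-foamy and 317 to 411 CPM in Trem2-/- foamy libraries. These ranges overlapped throughout. The log2 fold change between genotypes was 0.14 ± 0.08 without cholesterol (edgeR adjusted p = 0.165) and 0.04 ± 0.07 with it (edgeR adjusted p = 0.711).

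Because a ratio of 2 genes within a library does not depend on scaling, the counts of exporter and importer were also divided. The ratio of Slc40a1 to Tfrc reads was 0.0631 ± 0.00576 in WT non-foamy, 0.0862 ± 0.00745 in WT foamy, 0.164 ± 0.00351 in Trem2-/- non-foamy and 0.150 ± 0.0102 in Trem2-/- foamy cells (s.d.). The lowest Trem2-/- library was above the highest WT library.

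**Figure D2:**
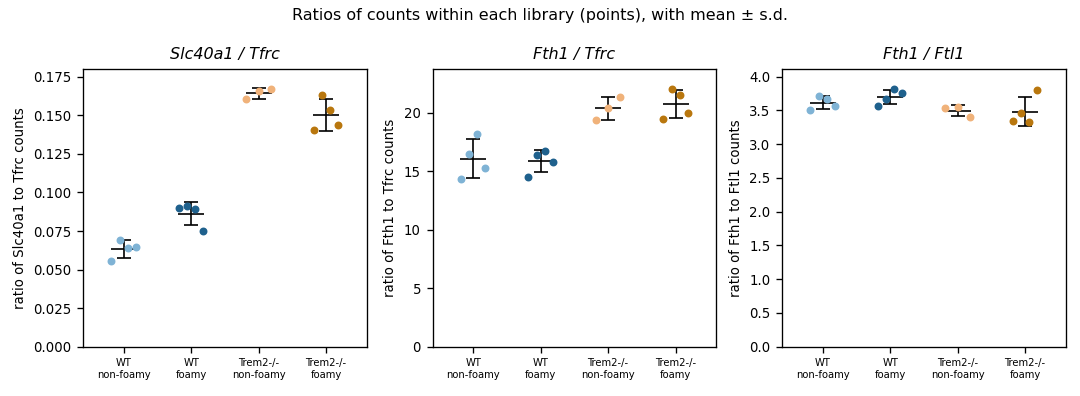
Ratios of read counts within each library (points) for 3 pairs of the genes, with mean ± s.d. (black) in the 4 groups; every vertical axis starts at 0. The ratio of Slc40a1 to Tfrc steps up from WT non-foamy to WT foamy and to the Trem2-/- groups, whereas Fth1 to Ftl1 stays between means of 3.48 and 3.70.

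Steap3 (chr1:120190757-120272705, minus strand) encodes the endosomal ferrireductase that reduces transferrin-derived iron. Its lowest level was 22.0 CPM in WT non-foamy replicate 3 and its highest 33.9 CPM in WT foamy replicate 1. The groups overlapped in every comparison and none was called. Without cholesterol the genotypes differed by a log2 fold change of 0.20 ± 0.10 (edgeR adjusted p = 0.0976), and with it by −0.04 ± 0.09 (edgeR adjusted p = 0.779).

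The metal transporters that move iron out of endosomes and phagosomes both differed by genotype, to unequal extent. Slc11a1 (chr1:74375195-74386062, plus strand) encodes NRAMP1, the transporter of the phagosome membrane of macrophages. Its WT non-foamy levels were 142, 154, 130.0 and 151 CPM and its Trem2-/- non-foamy levels were 196, 199 and 218 CPM. Under cholesterol the WT levels were 169.9, 157, 151 and 155 CPM and the Trem2-/- levels 230.4, 227, 214 and 183 CPM. In both conditions all Trem2-/- libraries were above all WT libraries. Slc11a1 differed by a log2 fold change of 0.50 ± 0.08 without cholesterol (edgeR adjusted p = 1.53e-05) and 0.43 ± 0.07 with it (edgeR adjusted p = 8.83e-05).

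Slc11a2 (chr15:100387898-100425072, minus strand) encodes DMT1, the divalent metal transporter of the endosome. Without cholesterol its levels were 29.7, 29.1, 24.6 and 26.3 CPM in WT and 35.4, 33.4 and 36.0 CPM in Trem2-/- cells, with no overlap. The log2 fold change was 0.35 ± 0.09 (edgeR adjusted p = 0.00444). Under cholesterol the WT libraries, at 26.3 to 34.7 CPM, overlapped the Trem2-/- libraries, at 29.7 to 34.8 CPM, and the log2 fold change was 0.06 ± 0.09 (edgeR adjusted p = 0.641). The change in this gap, −0.29 ± 0.13, did not pass the test (edgeR adjusted p = 0.245). With library sizes scaled by total counts alone, the difference without cholesterol was 0.21 and was no longer called (edgeR adjusted p = 0.190). Exons of Slc11a2 overlap Gm5475 on the opposite strand over 6.33% of their bases, and the strand setting of the counting is not stated.

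**Figure D3:**
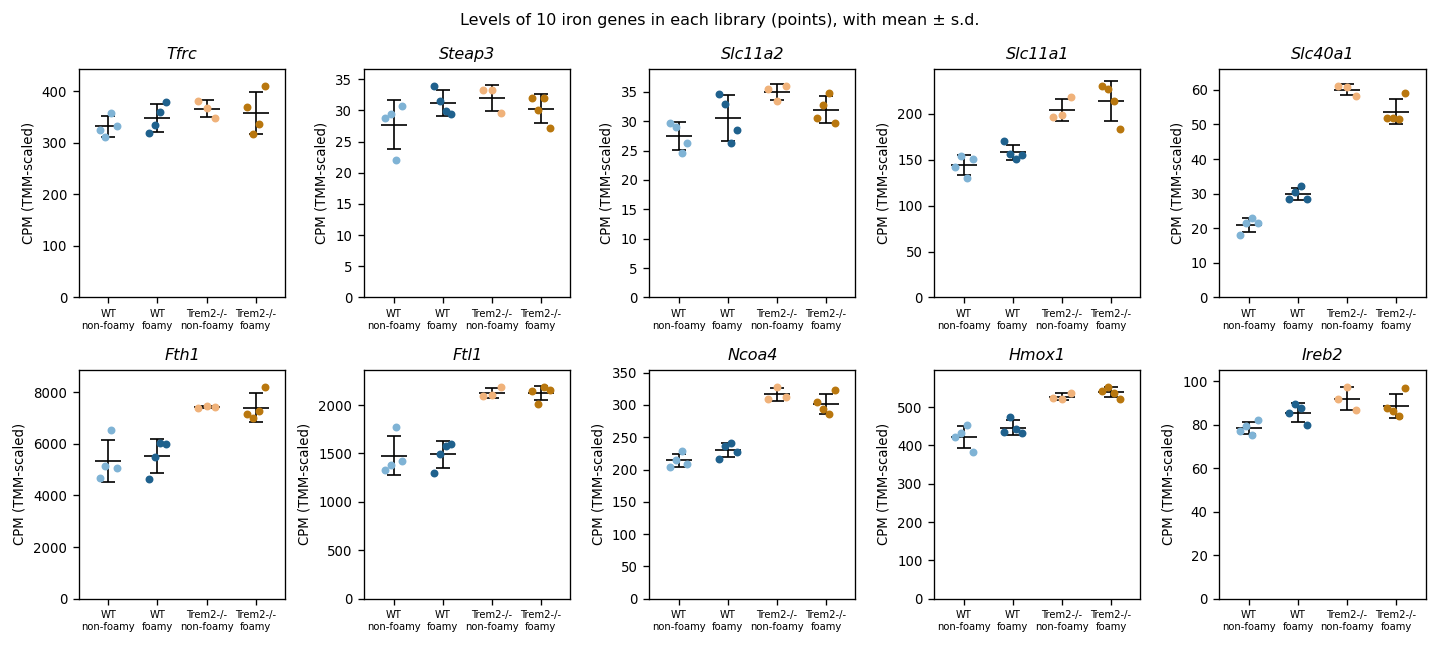
Level of each gene in every library (coloured points) in CPM after TMM scaling, with mean ± s.d. (black) for the 4 groups; every vertical axis starts at 0. Tfrc and Steap3 overlap across all groups, while for Slc11a1, Slc40a1, Fth1, Ftl1, Ncoa4 and Hmox1 the Trem2-/- libraries lie above the WT libraries of the same condition.

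Ferritin transcripts were among the most abundant in these cells. Fth1 (chr19:9980598-9985098, plus strand), the heavy chain that oxidizes iron as it enters the ferritin shell, was at 4663, 5133, 6519 and 5069 CPM in WT non-foamy and at 7399, 7472 and 7436 CPM in Trem2-/- non-foamy cells. With cholesterol it was at 4625, 5479, 6017 and 5997 CPM in WT and at 7164, 6981, 7270 and 8204 CPM in Trem2-/- cells. The genotypes did not overlap in either condition. Fth1 differed by a log2 fold change of 0.48 ± 0.10 without cholesterol (edgeR adjusted p = 0.000559) and 0.42 ± 0.09 with it (edgeR adjusted p = 0.00164).

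Ftl1 (chr7:45457944-45459884, minus strand), the light chain that helps the iron core form, followed the heavy chain. WT non-foamy libraries held 1327, 1380, 1777 and 1421 CPM and Trem2-/- non-foamy libraries 2090, 2105 and 2184 CPM. The foamy libraries held 1299, 1490, 1578 and 1598 CPM in WT and 2142, 2015, 2187 and 2158 CPM in Trem2-/- cells. Again no WT library reached a Trem2-/- library. The log2 fold change was 0.53 ± 0.09 without cholesterol (edgeR adjusted p = 3.73e-05) and 0.51 ± 0.08 with it (edgeR adjusted p = 5.25e-05). Neither chain was called for a cholesterol response, which in WT cells was 0.05 ± 0.09 for Fth1 (edgeR adjusted p = 0.852) and 0.01 ± 0.08 for Ftl1 (edgeR adjusted p = 0.957).

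Together the chains took 0.710 ± 0.0665% of all counted reads in WT non-foamy, 0.730 ± 0.0523% in WT foamy, 0.907 ± 0.0180% in Trem2-/- non-foamy and 0.908 ± 0.0354% in Trem2-/- foamy libraries. The highest WT share was 0.801% and the lowest Trem2-/- share was 0.875%. The ratio of Fth1 to Ftl1 reads was 3.62 ± 0.0938, 3.70 ± 0.108, 3.50 ± 0.0818 and 3.48 ± 0.221 in the same order. The ratio of Fth1 to Tfrc reads was 16.1 ± 1.67 and 15.9 ± 0.951 in WT and 20.4 ± 0.963 and 20.7 ± 1.23 in Trem2-/- cells. WT non-foamy replicate 3 had the highest Fth1 and Ftl1 of its group. Without it, the genotype difference of the non-foamy cells was 0.59 ± 0.08 for Fth1 and 0.63 ± 0.07 for Ftl1 on the log2 scale.

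Ferritin genes have many near-identical copies. Of the 50-base stretches in Ftl1 exons, 58.4% also occur in 17 other genes, and 34.6% of its exonic bases overlap other annotated genes. Of these genes 15 were in the count tables and 10 had reads, which came to 0.619% to 1.03% of the Ftl1 reads in a library. Ftl1-ps1 had 189 to 467 reads and Ftl1-ps2 had 38 to 146. Adding to Fth1 and Ftl1 the copies named after them, or every gene that shares such a stretch, changed no call. Whether reads with several matches were counted is not stated. If they were left out, they are in none of these rows, and adding rows cannot restore them. The Fth1 to Ftl1 ratio and the Ftl1 level per kilobase share this limit.

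Ncoa4 (chr14:32159865-32179855, plus strand) encodes the receptor that carries ferritin to the lysosome, where its iron is released. It was at 205, 214, 229 and 209 CPM in WT non-foamy and at 309, 328 and 313 CPM in Trem2-/- non-foamy cells. With cholesterol it was at 216, 237, 240.5 and 226 CPM in WT and at 304, 294, 286 and 322 CPM in Trem2-/- cells. All Trem2-/- libraries exceeded all WT libraries. The log2 fold change was 0.56 ± 0.06 without cholesterol (edgeR adjusted p = 1.68e-07), the second largest of the 10, and 0.39 ± 0.06 with it (edgeR adjusted p = 2.36e-05). Of the 50-base stretches in its exons, 17.9% also occur in the copy Gm6768.

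Hmox1 (chr8:75093621-75100589, plus strand) encodes the inducible heme oxygenase, which frees iron from heme. WT non-foamy levels were 421, 432, 453 and 384 CPM against 524, 522 and 537 CPM in Trem2-/- cells. With cholesterol they were 434, 474, 444 and 433 CPM against 542, 553, 538 and 521 CPM. The genotypes did not overlap in either condition, and the log2 fold changes were smaller than those of ferritin. They were 0.32 ± 0.06 without cholesterol (edgeR adjusted p = 0.000210) and 0.27 ± 0.06 with it (edgeR adjusted p = 0.00106).

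Ireb2 (chr9:54863789-54912530, plus strand) encodes iron regulatory protein 2, which binds such stem-loops. Without cholesterol it was at 76.9, 79.5, 75.3 and 81.9 CPM in WT and at 91.8, 97.3 and 86.8 CPM in Trem2-/- cells. These did not overlap, and the log2 fold change was 0.23 ± 0.07 (edgeR adjusted p = 0.00669), the smallest called among the 10. It was 0.09 with total counts alone (edgeR adjusted p = 0.349) and 0.19 without Trem2-/- non-foamy replicate 2 (edgeR adjusted p = 0.0552), and was called in neither. With cholesterol the groups overlapped, at 79.8 to 89.5 CPM in WT and 84.2 to 96.6 CPM in Trem2-/- cells, with a log2 fold change of 0.05 ± 0.06 (edgeR adjusted p = 0.561).

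The 3 genes with the motif in the 5′ UTR (Fth1, Ftl1 and Slc40a1) were called higher in Trem2-/- cells in both conditions. Tfrc, with 4 motifs in the 3′ UTR, was called in neither. Among genes without a found motif, Slc11a1, Ncoa4 and Hmox1 were called higher in both, Ireb2 without cholesterol alone and Steap3 in neither. Of all tested genes, 21.0% were called higher without cholesterol and 14.3% with it. Slc11a2, whose known 3′ UTR stem-loop the search did not cover, was called higher without cholesterol. For 9 of the 10 genes the WT response to cholesterol, at log2 fold changes between 0.01 and 0.17, did not pass the test (edgeR adjusted p 0.309 to 0.957). All 10 WT responses were above 0, where the median of all tested genes was 0.01. Without single libraries, those of Fth1 and Ftl1 fell to as low as −0.01 and −0.03. The share of all genes above 0 was not counted. All 10 genes also had their lowest group mean in WT non-foamy cells, whose libraries enter both counts. Scaled by total counts alone, 8 of 10 did.

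Levels of different genes were compared per kilobase of annotated exon. In WT non-foamy cells the means in order were 1541 CPM per kb for Fth1, 1102 for Ftl1, 241 for Hmox1, 53.6 for Tfrc, 38.9 for Slc11a1, 22.9 for Ncoa4, 8.27 for Ireb2, 4.85 for Steap3, 4.31 for Slc11a2 and 2.33 for Slc40a1. In Trem2-/- non-foamy cells Slc40a1 reached 6.68 CPM per kb and ranked above Steap3 and Slc11a2, which were at 5.60 and 5.50. The order of neighbours held in all 15 libraries except for 3 pairs. Tfrc was above Slc11a1 in 11, Steap3 above Slc11a2 in 13 and Slc11a2 above Slc40a1 in 8 of the 15. Over all libraries the ranges of Fth1 and Ftl1 also overlapped, though Fth1 was the higher in each. The exon lengths include every annotated transcript and so understate genes whose main transcript is short.

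**Figure D4:**
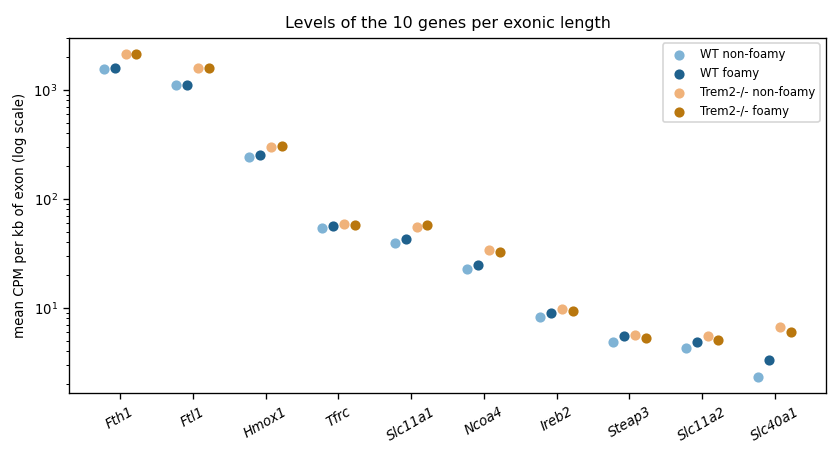
Group means in CPM per kilobase of annotated exon on a logarithmic axis, with 1 column of 4 coloured points per gene, ordered by the level in WT non-foamy cells. Fth1 and Ftl1 are highest, with means of 1541 and 1102 CPM per kb in WT non-foamy cells, and Slc40a1 changes place, from 2.33 in WT to 6.68 in Trem2-/- non-foamy cells.

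Across the 15 libraries, which share the group differences described above, Fth1 and Ftl1 had a Pearson correlation of 0.978 in log2 CPM, and 0.934 after the group means were removed. Slc40a1 and Ncoa4 had 0.977, and 0.785 after removal. For Slc40a1 and Hmox1 the values were 0.918 and 0.0970. Of the 45 pairs among the 10 genes, 3 had a negative correlation, and 23 had one after the group means were removed. The lowest was −0.83 for Fth1 and Steap3, and Slc11a1 and Slc40a1 went from 0.875 to −0.53. Single libraries weigh on these values. WT non-foamy replicate 3 had the highest Fth1 (6519 CPM) and lowest Steap3 (22.0 CPM) of its group, as did Trem2-/- foamy replicate 4 (8204 and 27.2 CPM). WT foamy replicate 1 had the lowest Fth1 (4625 CPM) and highest Steap3 (33.9 CPM). Shifts of a whole library and coupling of genes cannot be told apart here. Among tested genes averaging 1 CPM or more, those most like Slc40a1 over the 15 libraries were Gpr137b-ps (r = 0.997) and Btg1 (r = 0.993), an antiproliferative gene. For Ncoa4, Gm2a, which encodes the lysosomal GM2 ganglioside activator, was among the closest genes (r = 0.991). Fth1 was most like Vim, the intermediate filament vimentin (r = 0.986), and Ftl1 most like the ribosomal protein gene Rpl15 (r = 0.991). Hmox1 was most like Cd300lb (r = 0.977), Slc11a1 most like the triglyceride lipase gene Pnpla2 (r = 0.985) and Slc11a2 most like Acox3 (r = 0.941). The closest genes to Ireb2, Steap3 and Tfrc were Ppp1r21 (r = 0.917), Rest (r = 0.920) and Rrm2b (r = 0.904). These values describe 15 libraries in 4 groups and carry no test.

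Related genes of iron handling, from 6 lists written from general knowledge, were read from the same fit. The counts of each list stand against shares over all tested genes of 21.0% higher and 22.6% lower without cholesterol. With cholesterol those shares were 14.3% and 15.9%. Of 12 other genes of cellular iron uptake, 4 were tested, and without cholesterol 2 were higher and 1 was lower in Trem2-/- cells. Slc39a14, which encodes the importer of non-transferrin iron ZIP14, was at 20.7 ± 3.32 CPM in WT and 9.50 ± 1.63 CPM in Trem2-/- non-foamy cells. It fell by 1.13 ± 0.14 on the log2 scale (edgeR adjusted p = 4.70e-07), and by 0.60 ± 0.12 with cholesterol (edgeR adjusted p = 0.000590). Trf, transferrin itself, rose from 247 ± 14.1 to 327 ± 11.9 CPM (0.40 ± 0.07, edgeR adjusted p = 4.97e-05). Lrp1, a scavenger receptor that takes up heme-hemopexin, was at 0.48 ± 0.14 (edgeR adjusted p = 0.00898). It was not called without Trem2-/- non-foamy replicate 3 (0.40, edgeR adjusted p = 0.0573) or with total counts alone (0.34, edgeR adjusted p = 0.146).

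Of 6 other storage, chaperone and ferroxidase genes, 3 were tested, with 2 higher and 1 lower in both conditions. Cp, which encodes ceruloplasmin, the ferroxidase that works beside ferroportin, was at 3.36 ± 0.844 CPM in WT non-foamy and 16.2 ± 1.44 CPM in Trem2-/- non-foamy cells. Its log2 fold change of 2.26 ± 0.15 (edgeR adjusted p = 9.76e-11), and 1.94 ± 0.14 with cholesterol (edgeR adjusted p = 1.16e-09), was larger than that of any of the 10 genes. Pcbp2, a cytosolic iron chaperone, was higher at 0.42 ± 0.06 (edgeR adjusted p = 3.35e-06). Pcbp1, its relative, was lower at −0.20 ± 0.07 (edgeR adjusted p = 0.0346), a call that was lost without any 1 of 4 libraries: WT non-foamy replicates 2 (−0.19) and 4 (−0.16) and Trem2-/- non-foamy replicates 1 (−0.20) and 2 (−0.16).

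Of 13 sensing and regulatory genes, 8 were tested. Without cholesterol 3 were higher and 2 lower, and with it 3 were higher and 1 lower. Hfe, the hemochromatosis protein that binds the transferrin receptor, rose by 0.76 ± 0.08 (edgeR adjusted p = 1.26e-07), and Bach1, a heme-responsive repressor of Hmox1 and the ferritin genes, by 0.74 ± 0.08 (edgeR adjusted p = 5.03e-08). Epas1, the hypoxia-inducible factor HIF-2α, rose by 0.59 ± 0.14 (edgeR adjusted p = 0.00160). Herc2, a ubiquitin ligase, was at −0.54 ± 0.17 (edgeR adjusted p = 0.0125), and at −0.37 without WT non-foamy replicate 4 (edgeR adjusted p = 0.0697).

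Of 17 genes of heme metabolism, 13 were tested, of which 2 were called higher and 4 lower in the non-foamy comparison, and 3 higher and 1 lower in the foamy comparison. Flvcr1, which encodes a heme exporter, was at 46.7 ± 1.23 CPM in WT non-foamy, 59.4 ± 4.11 in WT foamy, 77.9 ± 3.32 in Trem2-/- non-foamy and 73.2 ± 5.94 CPM in Trem2-/- foamy cells. Like Slc40a1 it was called higher with cholesterol in WT cells (log2 fold change 0.35 ± 0.07, edgeR adjusted p = 0.00435) and higher in Trem2-/- cells without cholesterol (0.74 ± 0.07, edgeR adjusted p = 1.70e-08). With cholesterol Flvcr1 was also called higher in Trem2-/- cells (0.30 ± 0.07, edgeR adjusted p = 0.00114), though not with total counts alone (0.17, edgeR adjusted p = 0.0821). Its responses differed by −0.44 ± 0.10 (edgeR adjusted p = 0.0139), or by −0.40 without Trem2-/- non-foamy replicate 1 (edgeR adjusted p = 0.0581). The heme synthesis genes Cpox and Uros were lower in Trem2-/- non-foamy cells at −0.59 ± 0.13 and −0.47 ± 0.11 (edgeR adjusted p = 0.000563 and 0.00146).

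All 20 genes of mitochondrial iron and iron-sulfur cluster assembly were tested. Without cholesterol 2 were higher and 9 lower in Trem2-/- cells, and with it 2 were higher and 5 lower. The scaffold gene Iscu (−0.61 ± 0.08, edgeR adjusted p = 2.38e-06) and the glutaredoxin gene Glrx5 (−0.61 ± 0.07, edgeR adjusted p = 1.07e-07) were lower without cholesterol. The co-chaperone gene Hscb was higher (0.63 ± 0.10, edgeR adjusted p = 1.90e-05). With cholesterol these genes were called in the same directions. Iscu was at −0.27 ± 0.07 (edgeR adjusted p = 0.00807) and Hscb at 0.44 ± 0.09 (edgeR adjusted p = 0.000980). Glrx5 was at −0.20 ± 0.06 (edgeR adjusted p = 0.0131), and was not called without WT foamy replicate 2 (−0.17, edgeR adjusted p = 0.0528). Glrx5 and Cisd1, which encodes an outer mitochondrial membrane iron-sulfur protein, were also called in the difference between the responses, at 0.41 ± 0.09 and 0.54 ± 0.12 (edgeR adjusted p = 0.0130 for both). Without Trem2-/- non-foamy replicate 1 the difference for Glrx5 was 0.40 and was not called (edgeR adjusted p = 0.0505).

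Hmox1, Fth1, Ftl1 and Slc40a1 are known targets of the transcription factor NRF2. Of 8 other NRF2 targets, 7 were tested, with 1 called higher and 4 lower in non-foamy cells, where 21.0% and 22.6% of all genes were, and 1 higher and 3 lower in foamy cells, where 14.3% and 15.9% were. The glutathione synthesis gene Gclc fell from 34.3 ± 2.36 to 21.6 ± 1.11 CPM (log2 fold change −0.67 ± 0.09, edgeR adjusted p = 2.78e-06), and the thioredoxin reductase gene Txnrd1 fell from 68.0 ± 10.5 to 47.0 ± 2.67 CPM (−0.54 ± 0.10, edgeR adjusted p = 0.000184). The pentose phosphate gene G6pdx was at −0.31 ± 0.06 (edgeR adjusted p = 0.000174). Slc7a11, the cystine transporter gene, was higher at 0.51 ± 0.10 (edgeR adjusted p = 0.000217). The median log2 fold change of this list was −0.31 without and −0.10 with cholesterol. Those of the other lists, in the order given, were −0.36 and 0.09 for uptake, 0.42 and 0.26 for storage, 0.15 and 0.11 for regulation, 0.10 and 0.10 for heme, and −0.15 and −0.03 for the mitochondrial genes. The uptake list had more higher than lower calls but a median below 0 without cholesterol, because Lcn2, a gene for a siderophore-binding protein, at under 0.4 CPM in every library, lay at −1.32 ± 1.14 (edgeR adjusted p = 0.371, not called). No gene of the 6 lists was called for the response of Trem2-/- cells to cholesterol, and in WT cells Flvcr1 and Cisd1 alone were called. The Cisd1 response, −0.30 ± 0.08 (edgeR adjusted p = 0.0433), was not called without WT non-foamy replicate 1, 3 or 4 or WT foamy replicate 1, 2 or 3, with log2 fold changes of −0.33 to −0.21, nor with only the libraries compared (−0.30, edgeR adjusted p = 0.123).

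**Figure D5:**
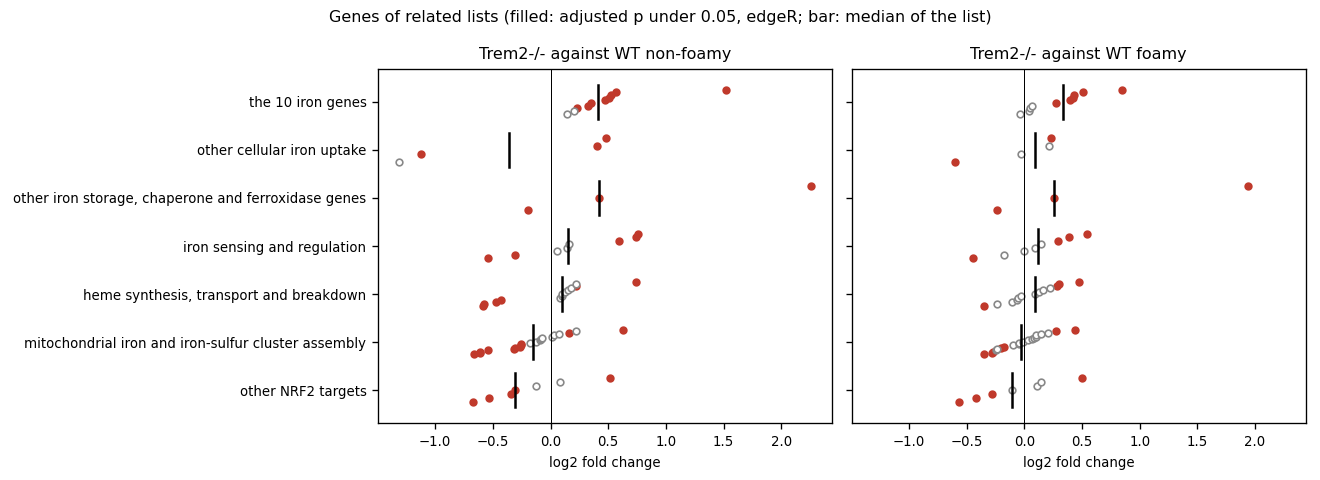
Log2 fold change between genotypes for each tested gene of the 10 iron genes and the 6 related lists, without (left) and with cholesterol (right). Points filled in red passed an adjusted p of 0.05, open points did not, and the black bar is the median of the list. The 10 iron genes lie almost entirely to the right of 0, and the uptake list, the mitochondrial list and the other NRF2 targets have medians below 0 on the left.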

How the data were processed

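Per the methods of the study, the authors ran the CHURP pipeline, in which Trimmomatic trims reads, HISAT2 aligns them (here to GRCm38) and featureCounts assigns them to genes. The deposited values are raw whole-number counts, without normalization, in 1 table per library, and the labels name the build mm10. The strand setting and the treatment of reads with several matches are not given in the sources used here, so counts of overlapping and near-identical genes are uncertain.

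Libraries were grouped by the genotype and treatment in their labels. Genes passing filterByExpr with a minimum count of 10 (14237 of 54390, 99.97% of counts) entered the quasi-likelihood model of edgeR 4.0.16 (R 4.3.3), with TMM factors of 0.918 to 1.11 and a separate mean for each group. All 10 iron genes passed. The biological coefficient of variation was 10.2%. Replicates differed by more than counting noise in all 21 pairs (chi-square per gene 5.95 to 45.2), so none was a duplicate. The procedure was tested on simulated counts. The iron genes, lists, markers and alternatives were chosen with earlier results of these data known. The genes named are the 10, Trem2, up to 4 called genes per list and comparison by smallest p, ferritin copies and the 2 genes most correlated with each of the 10, of which the first is given for most. A few genes that this rule names are not reported here. Alternatives were DESeq2 1.42.0, scaling by RLE factors or by total counts alone, no filter or a stricter one of 10 counts in every library, fits of only the groups compared, the replicate number as a block, ferritin copies added, and leaving out each library. Adding every gene that shares a 50-base stretch with a ferritin gene was chosen after the data were seen. Exon lengths, overlaps, shared stretches and stem-loops came from GENCODE M21 annotation and transcripts of GRCm38. Figures were drawn with matplotlib 3.10.9.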

Additional observations from a re-analysis of the deposited data

Results flagged for a closer look

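The response of Slc40a1 to cholesterol differed between the genotypes by −0.68 ± 0.11 on the log2 scale (s.e., edgeR adjusted p = 0.000877). Among the related genes, the responses also differed for Flvcr1 by −0.44 ± 0.10 (edgeR adjusted p = 0.0139), for Cisd1 by 0.54 ± 0.12 and for Glrx5 by 0.41 ± 0.09 (edgeR adjusted p = 0.0130 for both).

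Single libraries stood apart from the other 3 of their group in 7 of 114 groups of 4 tested by Dixon's criterion, where chance gives about 1 in 20. Slc40a1 was at 59.0 CPM in Trem2-/- foamy replicate 4, above 51.7 to 51.9 CPM in the rest. Without that library the response of Slc40a1 in Trem2-/- cells was −0.21 (edgeR adjusted p = 0.502), and the difference between the responses was −0.73 (edgeR adjusted p = 0.000411). Trem2 was at 217.6 CPM in Trem2-/- foamy replicate 3. WT non-foamy replicate 3 stood apart for Cisd1 (60.9 CPM), Epas1 (6.29 CPM) and Hscb (58.0 CPM). Glrx5 was at 76.6 CPM in WT non-foamy replicate 2, and Txnrd1 at 54.6 CPM in Trem2-/- foamy replicate 2.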

How the results depend on the processing

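Over 890 refits of the 10 genes, 887 gave the same call, 3 lost it and none gained one or reversed. The 3 are the values of Slc11a2 and Ireb2 in the report. Another 30 values that were not called changed sign, all with a reported log2 fold change of at most 0.06. Calls of named genes in the related lists were kept in 827 and lost in 50 of 877 refits. Counts per related list stayed within 1.5 times in 511 of 534 refits. Without a filter on low counts, 1 uptake and 1 regulatory gene passed in the WT response and 2 uptake genes in the difference between the responses, where none had. DESeq2 called 1 regulatory and 2 mitochondrial genes in the WT response, and 1 regulatory, 2 heme and 1 NRF2 gene in the difference. Requiring 10 counts in every library gave 1 regulatory gene in the difference. With total counts alone, 1 uptake gene was called between foamy genotypes and 1 NRF2 gene in the difference. With only the libraries compared, 0 mitochondrial genes were called in the WT response. Leaving out 1 library at a time gave 0 to 1 mitochondrial genes in the WT response, 4 to 9 between foamy genotypes and 1 to 3 in the difference, where 0 to 1 uptake and 0 to 1 heme genes passed. Total counts alone moved the median log2 fold change of all genes between genotypes to −0.13 in both conditions, and the calls in non-foamy cells from 2985 higher and 3222 lower to 1820 and 4379, in foamy cells from 2036 and 2261 to 1115 and 3666, in the WT response from 237 and 162 to 179 and 249, and in the difference from 284 and 234 to 397 and 168. Over all genes, the WT response had 399 calls, against 832 with DESeq2, 607 without the filter, 144 with only the libraries compared and 146 to 526 without 1 library. The Trem2-/- response had 20, against 55, 61 and 10 to 18 with DESeq2, without the filter and without 1 library. The difference had 518, against 940 with DESeq2 and 201 to 661 without 1 library. The cause of these shifts was not tested. Related genes with too few counts were not tested, and changes in them could not be seen at this depth.

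Replicate numbers gave no sign of pairing the libraries, though weak pairing could go unseen here. Residuals of libraries with the same number correlated at −0.10 to 0.14 (21 pairs), and 4 of 15 libraries correlated best with one of their own number. How many would do so without pairing was not computed. With the replicate block, 1, 0, 8, 6 and 1 of the 10 genes were called in the 5 comparisons, as without it, 0 mitochondrial genes were called in the WT response (Cisd1 at −0.30, edgeR adjusted p = 0.0564), Pcbp1 was not called between non-foamy genotypes (−0.20, edgeR adjusted p = 0.0531), and the difference between the responses had 294 calls over all genes.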
